A study of Homo sapiens with 14 samples.

Results

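This report covers 10 genes that regulate the actin cytoskeleton and are known from blood cells: CORO1A, LCP1, WAS, ARHGDIB, RAC2, DOCK2, HCLS1, MYO1G, NCKAP1L and EVL. They were chosen by name, and each was found by gene identifier, giving 10 of 58440 genes in every library. RNA was sequenced from attached HEK-293T cells of human embryonic kidney, from suspended Jurkat cells of a human T cell leukemia, and from mixtures of both. The 7 conditions were pure HEK (100% HEK cells), 80%, 60%, 50%, 40% and 20% HEK with Jurkat cells as the rest, and pure Jurkat (0% HEK), each with 2 libraries, 14 in all. HEK cells were grown in DMEM and Jurkat cells in RPMI, and mRNA was captured with oligo(dT) beads. ERCC spike-ins, synthetic RNAs put into the captured mRNA at a fixed volume, were counted beside the genes. The 2 libraries of a condition are technical replicates, so p-values between 2 conditions measure only the spread between such replicates. Those over all mixed libraries also take in differences between mixtures that the fitted model leaves out.

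Actin filaments shape the cell cortex and drive migration and the contact that a T cell makes with its target. The Rac GTPases switch on the WAVE complex and Cdc42 switches on the WASP proteins, and both activate the Arp2/3 complex, which starts branches on existing filaments. Leukocytes carry their own versions of many of these proteins, beside widely expressed paralogs with related functions. Loss of WAS, CORO1A, DOCK2, RAC2 or NCKAP1L is known to cause human immune deficiency.

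Levels are given in CPM, with counts scaled to the sum over genes without spike-ins. Libraries held from 4468822 counts on genes in a pure Jurkat library to 28303668 in a mixture with 50% HEK cells. A limit of 3 counts corresponded to 0.106 CPM in the deepest and 0.671 CPM in the shallowest library. Intervals and limits below cover counting error only. By file name the libraries form a group of 8, with both replicates of pure Jurkat, and a group of 6, with both of pure HEK. A difference between the pure lines therefore cannot be told apart from one between these groups.

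The labels were checked with markers. Summed over 8 T cell markers, pure HEK had 5.82 and 2.57 CPM and pure Jurkat 2397 and 2833 CPM. The most abundant of them in Jurkat was PTPRC, with a mean of 1517 CPM, and none of the 8 was at 0 in both HEK libraries. The 7 epithelial or kidney markers summed to 204 and 224 CPM in pure HEK and to 32.2 and 18.6 CPM in pure Jurkat, where most of the sum was CDH2, a cadherin, with a mean of 22.3 CPM, and PAX2 was at 0. Markers of other blood and vessel cells stayed low in the pure lines: the 4 myeloid markers summed to at most 0.886 CPM, the 2 erythroid and the 2 endothelial markers to at most 0.322 CPM, and the 3 B cell markers to at most 6.93 CPM, mostly CD79A in Jurkat. Of the 10 actin regulators, 9 summed to 4.66 and 5.58 CPM in pure HEK and to 1552 and 1308 CPM in pure Jurkat. The mean in HEK was 0.358% of that in Jurkat for these 9. EVL went against the label of a blood cell gene in these lines, since its mean in HEK was 56.5 CPM, 20.1% of its mean in Jurkat.

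**Figure D1:**
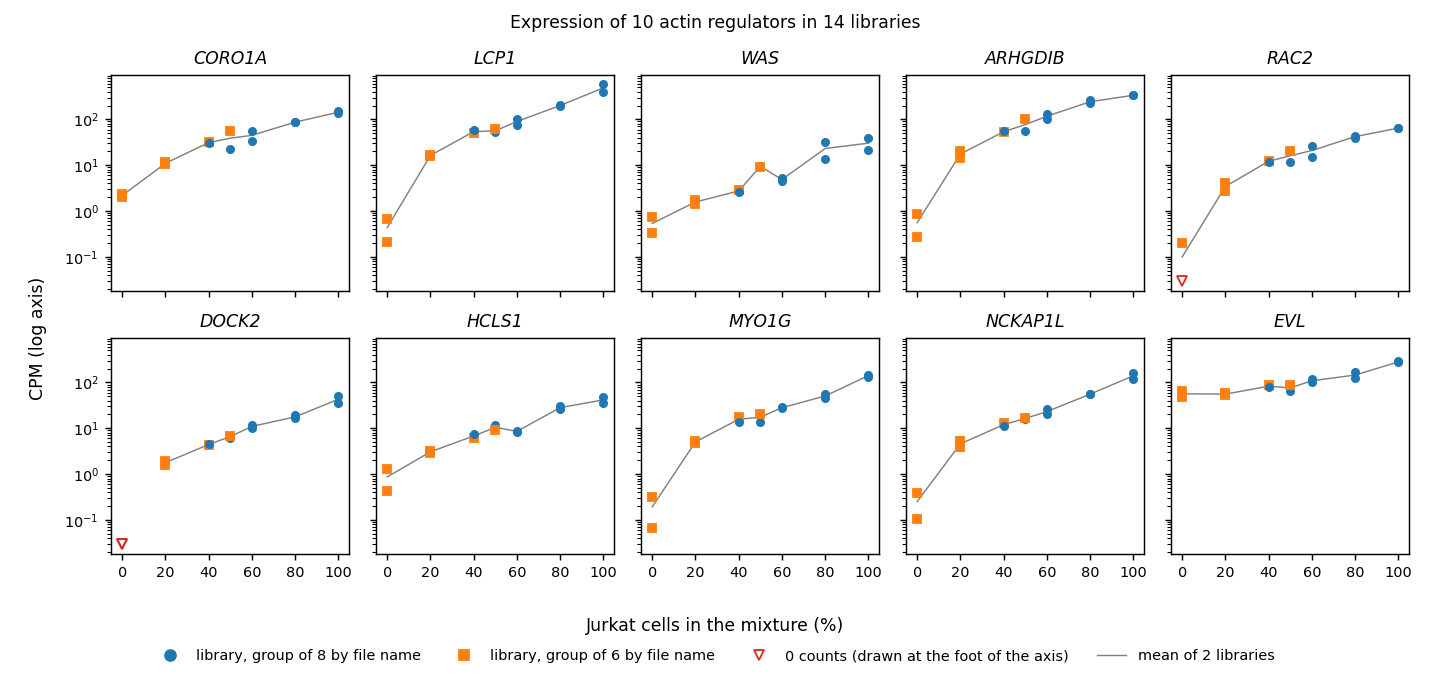
CPM (log axis) of the 10 actin regulators against the percentage of Jurkat cells in 14 libraries. Each point is a library, coloured by its group of file names, open triangles mark 0 counts, and lines join the means of 2 libraries. In 9 panels the pure HEK libraries lie at or below 2.35 CPM, while EVL starts at 48.1 and 64.8 CPM.

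The genes were first compared between the pure lines. All 10 actin regulators were called higher in Jurkat by edgeR at a Benjamini-Hochberg adjusted p of 0.05. Of 15794 genes tested, 3002 (19%) were called higher and 3825 (24.2%) lower in Jurkat. With so many genes called, the direction of 10 genes named as blood cell genes is a description of the lines. The median fitted log2 fold change of the 10 was 9.13, or 8.71 from summed counts with DOCK2 at its lower bound, against -0.07 over all genes tested. When libraries were scaled by spike-ins in place of genes, the median of all genes moved to -3.61 and that of the members to 5.82. Under that scaling 9 of the 10 were called higher and EVL lower, against 509 higher and 14616 lower of all 15794 genes. The number of cells was meant to be equal in all libraries, but fewer cells and less RNA per cell cannot be told apart in bulk RNA.

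Transcripts of proteins that bind, bundle or extend filaments differed widely in their level. CORO1A (ENSG00000102879.15, chr16:30182827-30189076 on GRCh38), a coronin that binds filaments and the Arp2/3 complex, had 2.01 and 2.35 CPM in pure HEK and 150.1 and 137 CPM in pure Jurkat. Its log2 fold change was 6.24 (SE 0.26, adjusted p = 0.00064 from edgeR). CORO1A was thus low but counted in HEK, with 55 counts over both libraries, and the lines did not overlap. LCP1 (ENSG00000136167.13, chr13:46125920-46211871), the leukocyte plastin that bundles filaments, had 2 and 10 counts in the pure HEK libraries, or 0.212 and 0.660 CPM, and 582 and 397 CPM in pure Jurkat. Its log2 fold change was 10.19 (SE 0.55, adjusted p = 0.00064 from edgeR), and it had the highest mean CPM of the 10 in Jurkat. The pure Jurkat libraries lay apart for LCP1, but by far less than their distance to the pure HEK libraries.

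HCLS1 (ENSG00000180353.10, chr3:121631399-121660927), the blood cell relative of cortactin that stabilizes Arp2/3 branches, had 0.423 and 1.31 CPM in pure HEK and 47.0 and 36.3 CPM in pure Jurkat. MYO1G (ENSG00000136286.14, chr7:44962662-44979088), a class I myosin that links filaments to the plasma membrane, had 3 and 1 counts in pure HEK and 134 and 149 CPM in pure Jurkat. From summed counts, HCLS1 was 42.0-fold higher in Jurkat (95% counting interval 27.7 to 65.9) and MYO1G 877-fold higher (342 to 3224). The wide interval of MYO1G comes with the 4 counts in HEK. The counting interval leaves out the spread between replicates: the fitted log2 fold change of HCLS1, 5.68 (SE 0.49), became 5.15 without the first and 6.76 without the second pure HEK library. EVL (ENSG00000196405.12, chr14:99971449-100144236), which promotes filament elongation as a member of the Ena/VASP family, had 64.8 and 48.1 CPM in pure HEK and 274 and 287 CPM in pure Jurkat. Its log2 fold change was 2.54 (SE 0.24, adjusted p = 0.0018 from edgeR), the smallest of the 10. Relative to spike-in counts, both pure HEK libraries had more EVL than both pure Jurkat libraries. Its direction was then reversed, with a log2 difference of -1.05 (edgeR's adjusted p = 0.040 with spike-in scaling). That scaling called 14616 of all 15794 genes lower and moved their median to -3.61, and EVL lay above that median.

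Of the activators of Arp2/3, WAS (ENSG00000015285.10, chrX:48676596-48691431), the Wiskott-Aldrich syndrome protein, had 0.741 and 0.330 CPM in pure HEK and 38.9 and 21.6 CPM in pure Jurkat. NCKAP1L (ENSG00000123338.12, chr12:54497752-54548243), the blood cell form of a WAVE complex subunit, had 0.106 and 0.396 CPM in pure HEK and 162 and 119 CPM in pure Jurkat. Summed counts gave a 59.2-fold difference for WAS (interval 33.4 to 116) and a 481-fold difference for NCKAP1L (233 to 1199). Neither gene overlapped between the lines, although WAS differed more between its Jurkat libraries, relative to its mean, than any other member.

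The last 3 are a Rac GTPase, RAC2, and regulators of Rac and related GTPases. RAC2 (ENSG00000128340.14, chr22:37225270-37259594), the Rac GTPase of blood cells, had 0 and 3 counts in pure HEK and 64.7 and 64.6 CPM in pure Jurkat, a ratio of 530.4 with an interval of 181 to 2578. DOCK2 (ENSG00000134516.15, chr5:169637268-170083382), an exchange factor that loads Rac with GTP, had 0 counts in both pure HEK libraries and 35.4 and 50.6 CPM in pure Jurkat. Taken against 3 counts over both HEK libraries, DOCK2 was at least 363-fold higher in Jurkat, a limit that leaves out the counting error in Jurkat. ARHGDIB (ENSG00000111348.8, chr12:14942031-14961728), which binds GTPases such as RAC2 and keeps them inactive in the cytosol, had 0.846 and 0.264 CPM in pure HEK and 339 and 333 CPM in pure Jurkat. Its log2 fold change was 9.55 (SE 0.52, adjusted p = 0.00064 from edgeR). RAC2 and ARHGDIB were the members whose Jurkat libraries lay closest together. Without the first or the second pure HEK library, the log2 fold change was 10.43 and 8.81 for ARHGDIB, 9.69 and 11.25 for LCP1 and 8.61 and 10.33 for NCKAP1L. For WAS it was 6.64 and 5.52. RAC2 and MYO1G moved more than these, and with at most 4 counts in HEK their fitted folds are not given. Folds of genes near 0 in HEK thus moved with 1 library, although all 10 stayed called. Of the 10 genes, WAS, ARHGDIB, RAC2 and MYO1G overlap no other annotated gene, while reads of the other 6 could in part be shared with overlapping genes. The libraries were made strand-specific, but whether strand entered the counts is not stated, so reads of CORO1A and of its antisense gene CORO1A-AS1 may have been counted together.

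Levels of different genes were compared in TPM, which accounts for transcript length. In pure Jurkat libraries, ARHGDIB (348 and 329.9 TPM) was followed by CORO1A with 318 and 285 TPM. EVL with 123 and 158 TPM and LCP1 with 167 and 111 TPM came next and overlapped each other. MYO1G with 51.7 and 56.6 TPM lay above RAC2 with 47.9 and 46.8 TPM, and RAC2 overlapped NCKAP1L with 47.5 and 34.7 TPM. The lowest were HCLS1 with 34.6 and 22.9 TPM, WAS with 30.8 and 15.7 TPM and DOCK2 with 18.9 and 26.6 TPM, and these 3 overlapped one another. Thus LCP1, first by CPM, was not first per length. In pure HEK libraries, EVL led with 34.3 and 28.0 TPM, and CORO1A was next with 1.94 and 4.56 TPM.

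Promoters of members were read for motifs and base composition. RefSeq promoters on GRCh38.p14, of 300 bases that end 50 bases past a gene's start, matched 8 of the 10 genes, with 12 promoters in all, and RAC2 and NCKAP1L were not in the table. The letters GGAAGT, which ETS family factors are known to bind, were searched on both strands and found in 6 of 12 promoters (50%), against 22.8% of 34796 promoters and 31.8% of 22 promoters of 13 paralogs described below. TGTGGT, known for RUNX factors, was found in 3 of 12 (25%), against 13.1% of all and 13.6% of those of the paralogs. These shares were not tested. The members' promoters held between 1 and 33 CG pairs, with a median of 5, against a median of 14 over all promoters and of 36.5 over those of the paralogs. A match is no sign that a factor binds there. The 5 sequences below, with both motifs in capitals, run from CG-poor to CG-rich. They are LCP1 (chr13:46182128-46182427, minus strand, 2 CG pairs), the downstream of the WAS promoters (chrX:48683549-48683848, plus strand, 4 CG pairs), DOCK2 (chr5:169637025-169637324, plus strand, 17 CG pairs), CORO1A (chr16:30183352-30183651, plus strand, 26 CG pairs) and the upstream of the EVL promoters (chr14:99971172-99971471, plus strand, 33 CG pairs).
LCP1: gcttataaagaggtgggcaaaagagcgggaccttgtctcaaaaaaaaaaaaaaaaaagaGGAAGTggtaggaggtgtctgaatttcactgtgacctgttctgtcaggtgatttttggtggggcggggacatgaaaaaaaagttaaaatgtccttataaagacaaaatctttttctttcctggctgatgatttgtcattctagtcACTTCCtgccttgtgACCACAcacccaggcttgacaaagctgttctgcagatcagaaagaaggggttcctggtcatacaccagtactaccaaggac
WAS: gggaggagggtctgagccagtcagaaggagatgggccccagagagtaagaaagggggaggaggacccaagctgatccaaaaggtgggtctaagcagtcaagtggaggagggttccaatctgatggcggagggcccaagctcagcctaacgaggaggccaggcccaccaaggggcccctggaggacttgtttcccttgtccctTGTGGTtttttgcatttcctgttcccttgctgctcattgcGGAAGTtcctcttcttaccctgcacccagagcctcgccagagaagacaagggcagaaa
DOCK2: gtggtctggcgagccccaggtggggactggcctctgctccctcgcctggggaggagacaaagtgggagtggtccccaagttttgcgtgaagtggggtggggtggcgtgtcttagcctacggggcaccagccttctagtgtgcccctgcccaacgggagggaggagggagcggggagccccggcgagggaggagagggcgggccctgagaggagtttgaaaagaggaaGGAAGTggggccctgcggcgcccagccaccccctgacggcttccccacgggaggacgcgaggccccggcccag
CORO1A: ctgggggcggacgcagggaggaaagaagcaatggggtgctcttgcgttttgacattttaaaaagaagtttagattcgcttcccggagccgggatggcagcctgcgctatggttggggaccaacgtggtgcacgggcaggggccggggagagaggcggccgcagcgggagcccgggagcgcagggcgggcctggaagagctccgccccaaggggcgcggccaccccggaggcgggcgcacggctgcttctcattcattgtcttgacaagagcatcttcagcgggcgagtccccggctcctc
EVL: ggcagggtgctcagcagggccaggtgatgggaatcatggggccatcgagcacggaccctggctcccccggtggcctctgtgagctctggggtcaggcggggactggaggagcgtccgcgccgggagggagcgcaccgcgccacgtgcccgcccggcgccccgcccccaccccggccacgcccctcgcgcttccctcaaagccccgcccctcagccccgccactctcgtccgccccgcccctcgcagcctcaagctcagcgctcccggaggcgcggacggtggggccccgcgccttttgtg

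LCP1 held GGAAGT at 2 places and TGTGGT at 1, all before the start, and WAS and DOCK2 each had GGAAGT close to the start. GGGCGG, the GC box, was in 58.3% of the members' promoters, 68.2% of those of the paralogs and 44.9% of all, and these shares were not tested. The shown CORO1A and EVL promoters held neither GGAAGT nor TGTGGT and had 3 and 5 copies of the GC box. The shown LCP1 and DOCK2 promoters had 1 copy each. With 5 promoters picked for display this is a description only.

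Each member was set beside its relatives, 19 paralogs in all. None of the 19 was called higher in Jurkat (background 19%), 10 were called lower (background 24.2%), and their median log2 fold change was -2.05, or -2.29 from summed counts with ARHGDIG at its bound, against -0.07 for all genes. With spike-in scaling all 19 were called lower, as were 14616 of all 15794 genes. PLS3, the plastin of solid tissues, had 33 counts over the pure Jurkat libraries and a log2 fold change of -6.63 (SE 0.40, adjusted p = 0.00069 from edgeR), opposite to LCP1. CTTN, which is cortactin, was lower by a log2 fold change of -4.47 (SE 0.39), and NCKAP1, the general form of NCKAP1L, by -3.17 (SE 0.28). Among the Ena/VASP genes, ENAH was lower in Jurkat with -2.98 (SE 0.25), and VASP at 0.42 (SE 0.25) did not pass.

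The other 6 paralogs called lower were DOCK1, MYO1C, MYO1D, MYO1E, RAC3 and ARHGDIG. DOCK1 had 3 counts over both pure Jurkat libraries and was 200.5-fold higher in HEK (counting interval 68.5 to 973), and ARHGDIG had none there and was at least 15.3-fold higher in HEK against 3 counts. The myosins MYO1C, MYO1D and MYO1E had log2 fold changes of -3.06, -2.73 and -2.33, and RAC3 of -2.05.

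**Figure D2:**
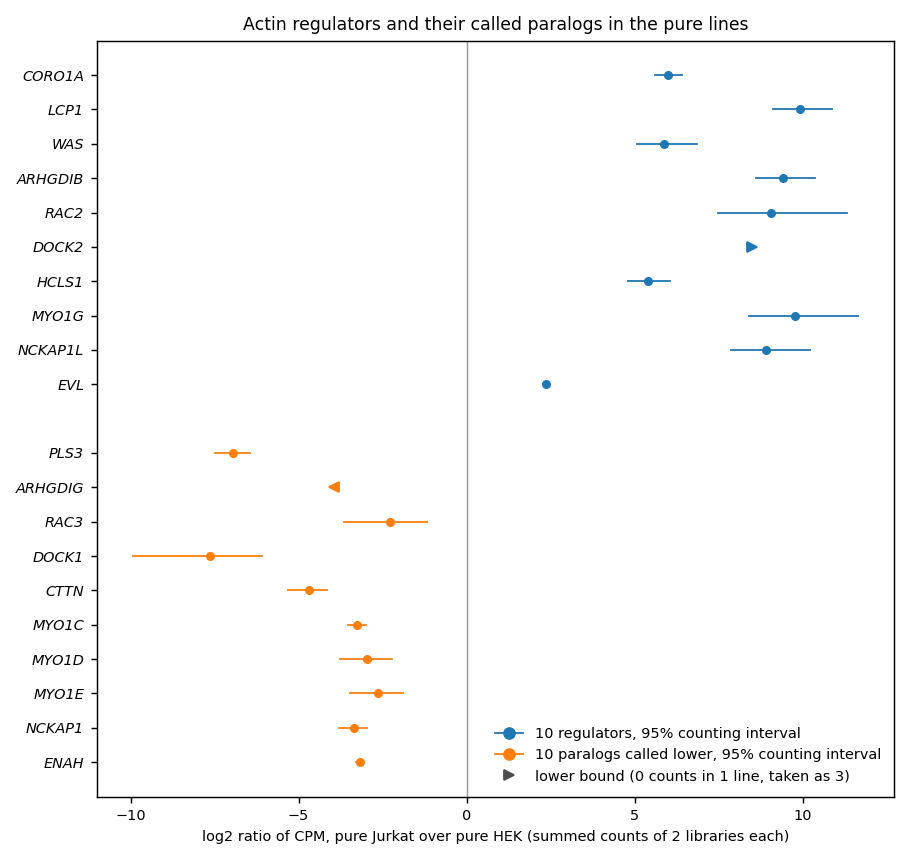
log2 ratio of CPM between pure Jurkat and pure HEK from summed counts of 2 libraries each, for the 10 regulators (blue) and the 10 paralogs called lower in Jurkat (orange), with 95% counting intervals and arrows for lower bounds. Apart from DOCK2, which is a bound, the regulators lie between 2.37 for EVL and 9.93 for LCP1, and these paralogs between -7.65 for DOCK1 and -2.29 for RAC3. With spike-in scaling EVL was lower in Jurkat, as were 14616 of all 15794 genes.

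For 9 of the members the share in the summed TPM of the gene and its paralogs is given, which does not depend on how libraries are scaled. LCP1 made up 0.0661% and 0.0986% of plastin TPM in pure HEK and 95.3% and 96.2% in pure Jurkat. NCKAP1L went from 0.0957% and 0.434% to 97.0% and 95.5%, and DOCK2 from 0 to 83.8% and 90.3%. In Jurkat, CORO1A reached 93.1% of the summed TPM of CORO1A, CORO1B and CORO1C in both libraries. HCLS1 reached 90.6% and 92.5% of its set, ARHGDIB 90.6% and 86.4%, WAS 86.9% and 83.5%, and EVL 68.2% and 70.8%. So 8 of these 9 members were the main form of their set in Jurkat. RAC2 was the exception with 7.15% and 5.38%, where RAC1 had a mean of 722 TPM in pure Jurkat and 862 TPM in pure HEK. EVL held 7.07% and 5.17% in HEK, where ENAH had a mean of 477 TPM.

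In the mixtures, the share of LCP1 among plastins was still 24.4% and 43.7% at 20% HEK, while CORO1A already had 47.2% and 46.4% at 80% HEK. ARHGDIB had 28.4% and 27.3% at 80% HEK, and LCP1 4.56% and 4.32%. The share of a member moved at a different percentage for different families. The amounts of the paralogs also differed: PLS3 had a mean of 124 TPM in pure HEK, and CORO1B and CORO1C had 12.7 and 14.3 TPM. A link between these amounts and the shares was not tested. EVL stayed at 9.38% and 16.1% at 20% HEK.

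**Figure D3:**
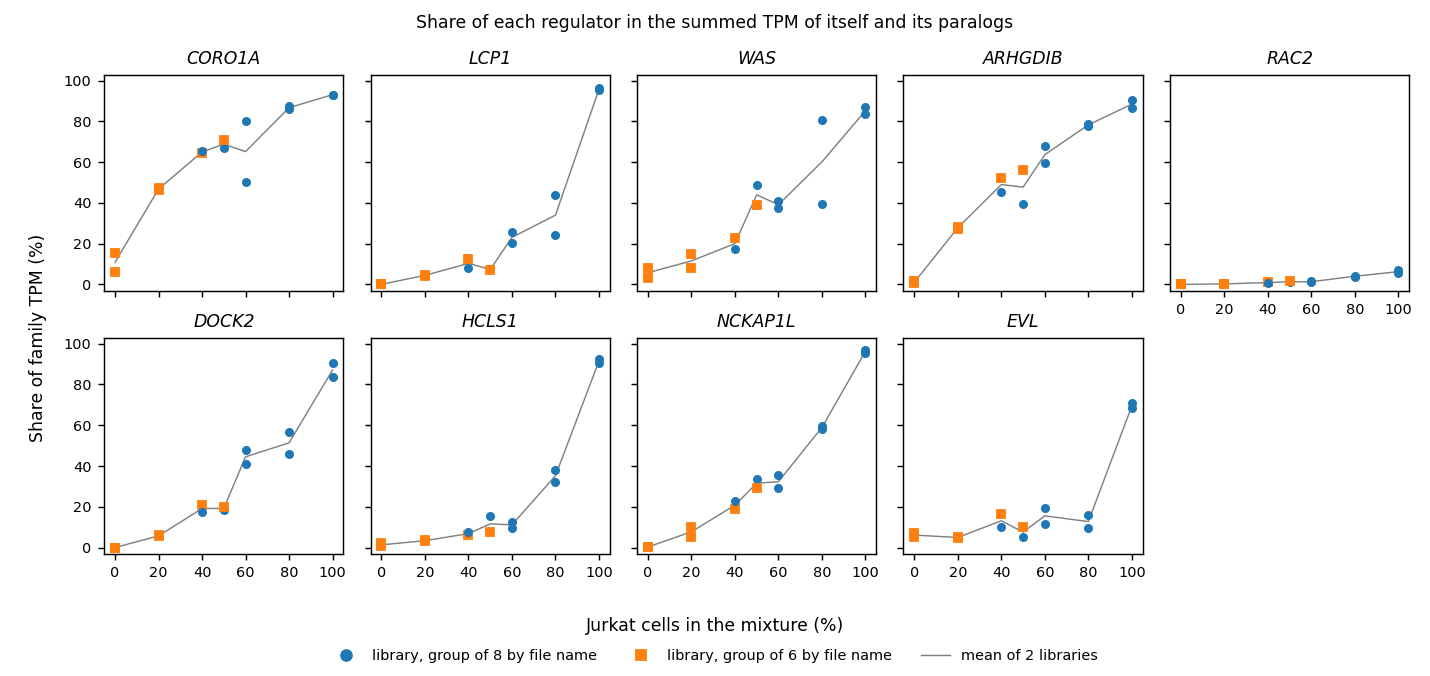
Share (%) of each of 9 regulators in the summed TPM of itself and its paralogs against the percentage of Jurkat cells, with a point for each of 14 libraries and lines through the means of 2. CORO1A and ARHGDIB climb early, LCP1, EVL and HCLS1 late, and RAC2 stays at or below 7.15%. The share of MYO1G is not shown.

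Partners of these proteins were read from lists of genes. Backgrounds for these lists are the 19% higher and 24.2% lower given above. With spike-in scaling they are 509 higher and 14616 lower of 15794 genes. Of 10 genes of the Arp2/3 complex, 3 were called higher and 2 lower in Jurkat, with a median log2 fold change of 0.18, and with spike-in scaling all 10 were called lower. ARPC1B had 1.97 (SE 0.21) and ARPC2 1.79 (SE 0.19), while ARPC1A had -1.62 (SE 0.23) and ACTR3B -1.60 (SE 0.26), so that the alternative subunits ARPC1A and ARPC1B went opposite ways. Of 10 genes of the WAVE complex, 3 were called higher and 3 lower, with a median of 0.30, and with spike-in scaling 1 was called higher, ABI3, and 8 lower. CYFIP2, a subunit next to NCKAP1L in the complex, had a log2 fold change of 2.96 (SE 0.36), and WASF1 of -1.71 (SE 0.22). ABI3 had 1 count in pure HEK and 7 and 50.2 counts, or 1.57 and 8.09 CPM, in the pure Jurkat libraries. Its ratio from summed counts was 132 with a counting interval of 22.7 to 5281, and rested mostly on the second Jurkat library.

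Of 12 partners of Rac and WASP, 7 were called higher and 2 lower in Jurkat, with a median of 0.95, and with spike-in scaling 1 was higher, RHOH, and 8 were lower. RHOH, a GTPase of blood cells, had a log2 fold change of 6.54 (SE 0.30) and ELMO1, which works with DOCK proteins, of 4.10 (SE 0.29). VAV2 had -1.17 (SE 0.27) and RHOA -0.72 (SE 0.20), while the other VAV genes were called higher, VAV3 with 3.80 (SE 0.23) and VAV1 with 2.94 (SE 0.22). Of 14 other actin regulators known from leukocytes, 13 were tested, 10 were called higher and 0 lower, with a median of 5.89, or 5.71 from summed counts, and 7 were higher and 3 lower with spike-in scaling. FYB1, an adaptor of T cells, had 6 counts over the pure HEK libraries and was 5173-fold higher in Jurkat (interval 2376 to 14098). FERMT3 was 935-fold higher (167 to 37066) with 1 count in HEK, ARHGAP15 was 580.3-fold higher (198 to 2820) with 3, and GMFG had a log2 fold change of 7.87 (SE 0.33). Not every gene known from leukocytes was higher in Jurkat: DOCK8, a relative of DOCK2, had 2 counts over the pure Jurkat libraries and a mean of 1.78 CPM in pure HEK, too low to be tested. DOCK8 was picked after its values were seen.

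The mixtures show how these levels change with the share of Jurkat cells. CORO1A had 10.5 and 11.5 CPM (80% HEK), 32.5 and 29.9 (60%), 22.8 and 54.8 (50%), 33.2 and 56.6 (40%), and 87.6 and 86.6 (20%). The libraries at 50% overlapped those at 60% and those at 40%, while the 2 libraries at 80% lay close together, as did those at 20%. LCP1 had 15.8 and 16.9 CPM (80% HEK), 49.9 and 58.2 (60%), 52.3 and 60.2 (50%), 75.5 and 104 (40%), and 202 and 199.9 (20%). ARHGDIB had 14.6 and 20.5 CPM (80% HEK), 53.2 and 54.4 (60%), 54.4 and 99.4 (50%), 129.7 and 104 (40%), and 226 and 261 (20%). ARHGDIB, DOCK2 and NCKAP1L kept the order of the Jurkat percentage with no overlap between neighbouring conditions, although ARHGDIB did so by a narrow margin between 60% and 50% HEK.

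WAS and HCLS1 were higher at 50% than at 40% HEK. WAS had 1.71 and 1.43 CPM (80% HEK), 2.92 and 2.55 (60%), 9.61 and 9.24 (50%), 5.19 and 4.55 (40%), and 32.8 and 13.5 (20%). The 2 libraries at 20% HEK lay far apart for WAS and overlapped those of pure Jurkat. EVL had 52.9 and 58.6 CPM (80% HEK), 87.6 and 78.0 (60%), 66.3 and 86.6 (50%), 101 and 116 (40%), and 123 and 168 (20%). For EVL the pure HEK libraries overlapped those at 80% HEK, and those at 50% overlapped those at 60%. By condition means, 7 of the 10 members followed the order of the Jurkat percentage, and WAS, HCLS1 and EVL did not. For members that are low in HEK, a rise with the Jurkat percentage follows from the mixing. How many of all genes keep this order, with or without overlap between neighbouring conditions, was not counted. These orders therefore describe the members only.

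The lowest dose of Jurkat cells was compared with none. This comparison shares the pure HEK libraries with the one between the pure lines. At 80% HEK, 4 of the 10 members were called higher than in pure HEK by edgeR's quasi-likelihood test, against 74 (0.431%) of 17179 genes tested, and 2 genes (0.0116%) were called lower. Members near 0 in pure HEK could pass the low-count filter through the libraries at 80% HEK alone, so the share of all genes is no measure of chance for them. They were LCP1 (adjusted p = 0.010 from edgeR), ARHGDIB (0.017), CORO1A (0.023) and MYO1G (0.030). NCKAP1L lay at the threshold with an adjusted p of 0.0501 from edgeR. From summed counts, LCP1 was 33.6-fold above pure HEK (counting interval 19.03 to 65.4), ARHGDIB 35.9-fold (20.4 to 69.9), MYO1G 30.9-fold (11.8 to 115) and CORO1A 4.94-fold (3.69 to 6.67). DOCK2, with 24 and 29 counts at 80% HEK, was at least 14.6-fold higher against 3 counts in pure HEK, but had an adjusted p of 0.070 from edgeR. Both libraries at 80% HEK were above both pure HEK libraries for 9 members. The share of all genes that separate in this way was not counted, so this describes the members only. EVL had a ratio of 1.02 with a counting interval that included 1.

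These calls rest on few libraries. Without the first or without the second library at 80% HEK, edgeR called no gene at all, with 1305 and 1468 genes at an unadjusted p under 0.05, while DESeq2 on the 4 libraries called 373 genes and 7 members. Without the first or the second pure HEK library, 354 and 310 genes and 7 and 8 members were called. The fitted log2 difference was then 4.65 and 6.26 for LCP1 (5.11 with both), 6.04 and 4.40 for ARHGDIB (5.14 with both) and 2.24 and 2.50 for CORO1A (2.35 with both). MYO1G moved more than these, with 3 and 1 counts in the pure HEK libraries. With spike-in scaling, 28 genes and none of the members were called, and 262 genes had an unadjusted p under 0.05. The log2 differences of the 4 members stayed above 0, at 4.78 for LCP1, 4.53 for ARHGDIB, 4.27 for MYO1G and 1.85 for CORO1A, but their standard errors were between 1.13 and 1.39. Spike-in scaling itself varied: the 2 libraries at 80% HEK had 46.6 and 123 gene counts for each spike-in count. Of the partners, CYFIP1 of the WAVE complex was called, with 116 and 142 CPM at 80% HEK against 25.8 and 26.2 CPM in pure HEK (log2 2.35, SE 0.18, adjusted p = 0.010 from edgeR). Pure Jurkat had 18.0 and 37.8 CPM of CYFIP1, so that both pure lines lay below the mixture. None of the 19 paralogs or the 10 Arp2/3 genes was called, while FYB1 and GMFG of the leukocyte list and 5 of the 8 T cell markers were called higher. With spike-in scaling CYFIP1 and GMFG were not called, and FYB1 and 1 of the T cell markers were.

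A slope of log2 expression per 10 percentage points of Jurkat cells was fitted over the 10 mixed libraries, which share no library with the comparison of the pure lines. All 10 members had a slope above 0 past the threshold of edgeR's quasi-likelihood test, against 876 (5.08%) of 17242 genes with a called rise and 91 (0.528%) with a called fall. The median slope was 0.58 for the members and -0.0011 for all genes. For the 9 members near 0 in pure HEK, a rise with Jurkat cells follows from the mixing. EVL was also higher in pure Jurkat by CPM. These calls are therefore no support apart from the difference between the pure lines. The steepest were WAS at 0.64 (SE 0.10) and ARHGDIB at 0.64 (SE 0.05), and NCKAP1L at 0.60 (SE 0.03) had the smallest adjusted p (2.9e-06 from edgeR). LCP1 (0.59), RAC2 (0.58), DOCK2 (0.57), MYO1G (0.55), HCLS1 (0.51) and CORO1A (0.48) lay close together, with standard errors from 0.04 to 0.05. EVL had 0.24 (SE 0.04, adjusted p = 0.00091 from edgeR). Differences in slope between members were not tested.

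All 10 slopes stayed called without any single mixed library, although the count of called genes fell to 572 without the first library at 20% HEK. With spike-in scaling the median slope of all genes moved to -0.31 and that of the members to 0.28. Then 8 members had a called rise, against 212 rises and 13485 falls over all 17242 genes. CORO1A had 0.18 (adjusted p = 0.096 from edgeR) and EVL turned to -0.06, and neither passed. Within the 6 mixed libraries of the larger group of file names, 6 members were called, and CORO1A (0.46), WAS (0.66), HCLS1 (0.49) and EVL (0.27) did not pass. Within the 4 of the smaller group, 9 were called, and EVL (0.17) did not pass. There 165 of 17458 genes rose and 434 fell, and in the larger group 203 rose and 0 fell. All slopes were above 0 in both groups. The groups cover different mixtures: the smaller held both libraries at 80% HEK, the first at 60% and the second at 50%. All libraries at 40% and 20% HEK were in the larger, so the group changes along with the Jurkat percentage.

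Slopes of the lists were read in the same way, with differences from the members not tested. With spike-in scaling 212 of all 17242 genes had a called rise and 13485 a called fall, so falls under that scaling were common in any list. None of the 19 paralogs had a called slope, with a median of -0.05, and all 19 fell with spike-in scaling. In the leukocyte list 9 of 14 genes rose and 0 fell, with 4 rising and 1 falling under spike-in scaling, and in the list of Rac and WASP partners 5 of 12 rose, of which RHOH at 0.53 (SE 0.04) was steepest, while with spike-in scaling RHOH alone rose and 6 fell. ARPC1B at 0.14 (SE 0.03) was the 1 gene of Arp2/3 that rose, and with spike-in scaling no Arp2/3 gene rose and 8 fell. In the WAVE list ABI3 at 0.63 (SE 0.09) and CYFIP2 at 0.23 (SE 0.04) rose, and with spike-in scaling ABI3 alone rose and 8 fell. All 8 T cell markers rose, 7 of them also with spike-in scaling, and of the 7 HEK markers YAP1 fell, joined by the other 6 with spike-in scaling.

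A gene of Jurkat cells gives an estimate of the share of Jurkat RNA in a library, from where its CPM lies between the means of the pure lines. The median over the 10 members, averaged over 2 libraries, was 3.96% at 80% HEK, 12.0% at 60%, 16.5% at 50%, 21.2% at 40% and 49.0% at 20%. All medians were below the percentage of Jurkat cells. For each spike-in count, pure HEK had 147 and 97.3 gene counts and pure Jurkat 12.1 and 12.3, so the ratio between the lines depends on the HEK library. Replicates of mixtures also differed, with 29.9 and 56.1 at 60% HEK and 17.4 and 28.0 at 20%. The means give a ratio of 10.03 between pure HEK and pure Jurkat. With that ratio, the same mixtures would hold 2.43%, 6.23%, 9.06%, 13.0% and 28.5% Jurkat RNA. The share fitted over 15860 other genes was 4.43% and 3.80% (80% HEK), 7.55% and 8.25% (60%), 15.5% and 9.58% (50%), 22.3% and 15.4% (40%), and 37.1% and 35.7% (20%). The median of the members lay above this share in 7 of the 10 mixed libraries and below it in the first libraries at 80%, 50% and 40% HEK.

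The members did not give the same share. At 20% HEK, CORO1A gave 60.4% and 59.8%, RAC2 61.4% and 68.7%, ARHGDIB 67.2% and 77.5% and HCLS1 71.8% and 62.5%. LCP1 gave 41.3% and 40.8%, NCKAP1L 39.6% and 39.4%, DOCK2 38.1% and 44.7% and MYO1G 31.6% and 39.9%. At this mixture the libraries of the first 4 genes did not overlap those of the last 4. WAS gave 108% and 43.6%, and EVL 29.7% and 49.5%, with libraries further apart than those of the other 8. At 60% HEK, CORO1A gave 21.5% and 19.6%, RAC2 19.3% and 18.2% and ARHGDIB 15.7% and 16.1%, against 10.1% and 11.8% for LCP1 and 8.89% and 7.88% for NCKAP1L. The grouping did not hold in every mixture: at 40% HEK, HCLS1 with 18.5% and 19.3% lay below DOCK2 with 27.5% and 23.6%. Differences between genes were not tested, and the genes were grouped after seeing these values.

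**Figure D4:**
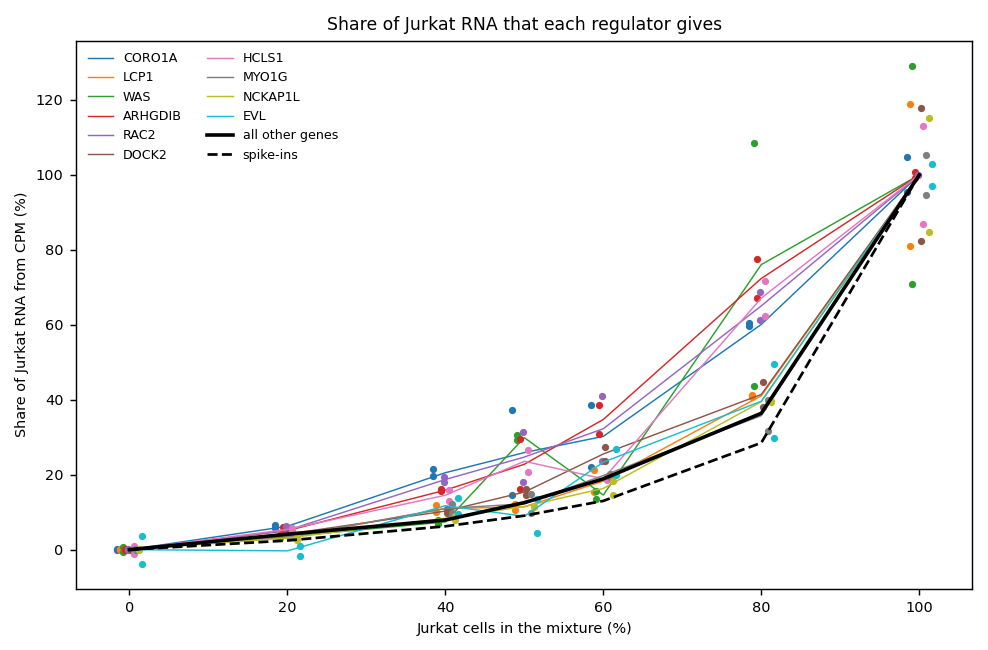
Share of Jurkat RNA (%) that the CPM of each regulator gives against the percentage of Jurkat cells, with a point per library (shifted sideways for view) and coloured lines through the means of 2. The black line is the share from all other genes and the dashed line that from spike-ins. At 80% Jurkat cells CORO1A, RAC2, ARHGDIB and HCLS1 lie above 59%, and LCP1, NCKAP1L, DOCK2 and MYO1G below 45%.

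The same question was put as a test, whether a gene in the mixtures departs from the sum of the pure lines weighted by the RNA share from other genes. limma's treat function asked for a log2 difference beyond 0.5 over the 10 mixed libraries. None of the 10 members was called above or below, against 2 (0.0125%) and 26 (0.163%) of 15950 genes. At an unadjusted p under 0.05 limma had 254 genes, and ARHGDIB alone of the members. Its log2 difference was 0.78 (SE 0.14), with an adjusted p of 1 from limma. ARHGDIB was above the additive level in 9 of 10 libraries. CORO1A had 0.74 (SE 0.16), above it in 8 of 10, and RAC2 0.74 (SE 0.15), in 9 of 10. HCLS1 had 0.47 (above it in 9 of 10), WAS 0.28 (in 5) and DOCK2 0.23 (in 8). LCP1 at 0.04 (in 6), MYO1G at 0.05, NCKAP1L at -0.08 and EVL at -0.01 (in 5 each) lay near 0. With the RNA share from spike-ins, CORO1A (1.11, adjusted p = 0.027 from limma), ARHGDIB (1.23, 0.0011) and RAC2 (1.12, 0.011) were called above. Over the 8 T cell markers the median was 0.54, from 0.73 for CD3E to -0.65 for PTPRC, against 0.26 over the members and -0.01 over all genes. None of the markers was called, and a difference from the members was not tested. The error of the pure means is not part of this test. The count of called genes rose to 153 without the first and 136 without the second pure HEK library and to 52 without the second pure Jurkat library, and no member was called in any of these.

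**Figure D5:**
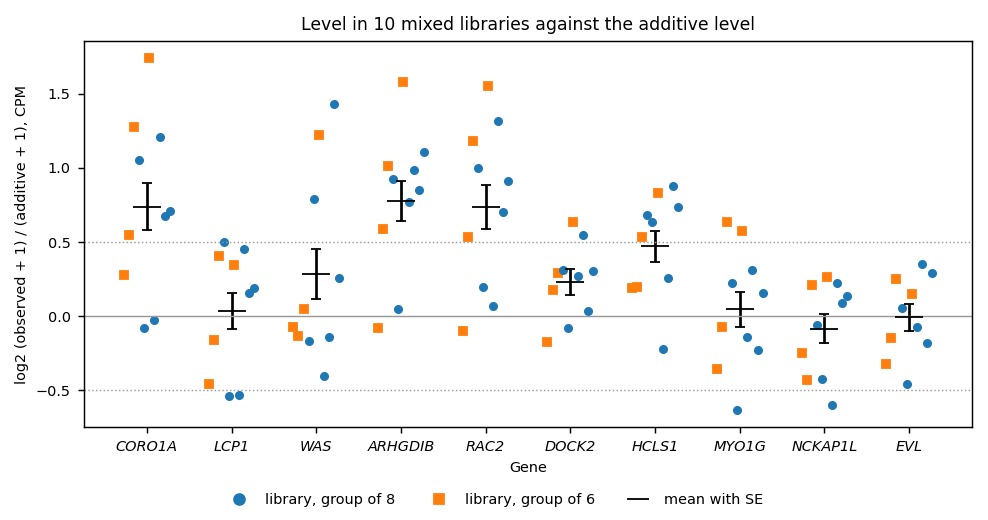
log2 ratio of observed to additive CPM, each with 1 CPM put on top, for the 10 regulators in 10 mixed libraries, coloured by group of file names. Black marks are means with standard error, and dotted lines mark the tested bound of 0.5. ARHGDIB, CORO1A and RAC2 average 0.78, 0.74 and 0.74, and none of the 10 passed the test.

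The makeup of the set itself was followed without any scaling, as the share of each gene in the summed CPM of the 9 members other than EVL. LCP1 made up 37.5% and 30.3% in pure Jurkat and between 20.2% and 30.0% in the mixtures, below both pure libraries in 10 of 10 mixed libraries. NCKAP1L was also below both in 10 of 10, with 10.4% and 9.11% in pure Jurkat and between 5.58% and 8.77% in mixtures. ARHGDIB made up 21.8% and 25.5% in pure Jurkat and between 24.2% and 39.5% in mixtures, above both in 9 of 10. CORO1A made up 9.67% and 10.5% in pure Jurkat and 10.1% to 18.4% in mixtures, above both in 9 of 10. In pure HEK, from few counts, CORO1A made up 43.2% and 42.2%, LCP1 4.54% and 11.8%, NCKAP1L 2.27% and 7.10% and ARHGDIB 18.2% and 4.73%. For CORO1A, LCP1 and NCKAP1L most or all mixtures lay on the side of pure Jurkat where pure HEK lay. Most did so for HCLS1 (8 of 10 above both Jurkat libraries and 2 below both) and MYO1G (8 of 10 below). For ARHGDIB, and for RAC2 with 8 of 10 above, pure HEK lay below pure Jurkat and most mixtures above. WAS was above both Jurkat libraries in 4 of the mixed libraries and below both in 4. DOCK2 was below both in 2 and above both in none. The 9 members summed to 4.66 and 5.58 CPM in pure HEK, against 735 and 762 CPM at 20% HEK. A cause of the different makeup in mixtures was not tested.

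Genes with a profile like the mean of the members were sought among 11386 candidates with a mean of at least 5 CPM. T cell markers and all other listed genes were left out of the candidates. Each profile over the 14 libraries was divided by its sum, and the nearest were SNRPN, ENSG00000260997, CRIP1, GIMAP2 and CD52. Their root mean square differences from the mean profile ranged from 0.731 percentage points for SNRPN to 0.909 for CD52. SNRPN had a mean of 0.278 CPM in pure HEK and 49.8 CPM in pure Jurkat. Among the members, HCLS1 at 1.41 and RAC2 at 1.41 percentage points were nearest to the mean profile, and WAS at 3.64 was furthest, followed by EVL at 2.97.

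These results come from bulk RNA of 1 line of each kind, with 2 technical replicates per condition, so no spread between cultures or between lines of the same kind was measured. The low counts of DOCK2, RAC2 and MYO1G in HEK leave their ratios as bounds or wide intervals. Whether reads of the members in pure HEK came from HEK cells or from traces of another library was not tested. The line, the culture medium and the group by file name change together in the pure libraries. Protein, activity of the GTPases and filaments were not measured. The direction of EVL between the pure lines depended on the scaling, which moved the median of all genes from -0.07 to -3.61.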

How the data were processed

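RNA-seq of 14 libraries was examined, 2 for each of 5 mixtures of HEK-293T and Jurkat cells and 2 for each pure line. Alignment by the authors was to GRCh38 plus ERCC sequences with STAR 2.6.1b, and counting with RSEM 1.3.1. The deposited values are expected counts, not normalized, and TPM, scaled by RSEM over genes and the 92 spike-ins together. The annotation release of the authors is not given in the sources used here. Symbols and coordinates came from GENCODE release 44 by identifier without version, with 57799 of 58440 genes and all 10 members matched. The members and gene lists were chosen with earlier results of these data known.

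For tests the expected counts were rounded to integers. edgeR 4.0.16 (TMM, filterByExpr, quasi-likelihood, Benjamini-Hochberg at 0.05) was the main test, and all 10 members passed its low-count filter. In the pure comparison 9 of them could pass it through their level in Jurkat alone, and at 80% HEK those near 0 in pure HEK through the 80% libraries alone. DESeq2 1.42.0 was an alternative. Additive levels used the means of the pure libraries and an RNA share fitted by least squares to log2(CPM + 1) over 15860 genes outside the lists, and departures were tested with limma 3.58.1 (treat at 0.5, genes of at least 1 CPM). The share was first fitted on the linear scale, where the second library at 50% HEK came out at 0% Jurkat RNA and the first at 80% HEK at 12.4%, against 4.43% on the log scale. The log scale replaced it after this outcome was seen, and both scales called 28 genes. Ratios of summed counts carry exact 95% intervals, and 3 counts, near the one-sided 95% limit for 0 counts, stood for 0.

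Genes named were all members, all called paralogs, and the 5 most similar profiles outside all lists. From each other list of actin genes, up to 4 called genes with the largest fold changes were named. These were 2 in each direction where both directions had calls, with VAV1 and VAV3 added beside VAV2. Results that need 1 of the paralogs by name, and the share of a member that includes it, are not reported here. DOCK8 and the 5 printed promoters were picked after seeing their values. The lists were paralogs, Arp2/3, the WAVE complex, partners of Rac and WASP, other leukocyte actin regulators, and markers of T cells, HEK cells, B cells, myeloid, erythroid and endothelial cells. Promoters were first counted by the first entry of each gene, and by all entries after the counts had been seen. Motifs searched were ETS, RUNX, GC box and TATA box. Alternatives covered scaling, filters, the test, the file-name groups and each library left out. The steps were tested on simulated data. Software was pandas 2.3.3, scipy 1.17.1 and numpy 2.4.6 on Python 3.11.15, with R 4.3.3.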

Additional observations from a re-analysis of the deposited data

How the results depend on the processing

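No paired analysis was possible because the labels give no replicate numbers that groups share (first and second follow the order of deposit). Over the 4 comparisons, 504 values of single members kept their side of the threshold, 33 lost a call and 21 gained one. Of values called before, 2 were reversed, both for EVL with spike-in scaling (-1.05 between the pure lines and -0.062 for the slope). Values that were not called could change sign, as EVL at 80% HEK did (0.03, and -0.56 with spike-in scaling). Where no value is given beside a change, the cause was not tested.

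Between the pure lines, 6827 genes were called. Bonferroni adjustment left 65 genes and 1 member, CORO1A. Spike-in scaling called 15125 genes, 509 higher and 14616 lower, against 3002 and 3825. Leaving out 1 library gave from 3131 to 6227 genes, with 3194 without the first and 3131 without the second pure HEK library, and all 10 members were called each time. At 80% HEK against pure HEK, 76 genes and 4 members were called. Bonferroni left 6 genes and 0 members, spike-in scaling 28 genes (17 higher and 11 lower) and 0 members. Without the low-count filter there were 722 genes and 8 members, with DESeq2 373 and 7, and in a fit on all 14 libraries 182 and 7. Leaving out 1 library gave from 0 to 354 genes and from 0 to 8 members. The lone library of a condition was then assumed to vary like the other group.

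For the slope over mixtures, 967 genes were called. Bonferroni left 232, spike-in scaling gave 13697 (212 rising and 13485 falling, against 876 and 91), and a block for the file-name group 512, with all 10 members called under the block. Alternatives chosen after seeing the data were the larger file-name group alone (203 genes, 6 members), the smaller alone (599 genes, 165 rising and 434 falling), the linear RNA share and the pure libraries left out of the additive level. Leaving out 1 library gave from 572 to 1155 genes. For the departure from additive mixing, 28 genes and 0 members were called, 59 and 3 with the RNA share from spike-ins and 47 genes with a pseudocount of 0.2 CPM. Leaving out 1 library gave from 23 to 153 genes.

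TPM in place of CPM moved the median share of Jurkat RNA from the members to 3.11% at 80% HEK, 9.92% at 60%, 19.1% at 40% and 45.2% at 20%. Leaving out 1 pure library gave from 3.87% to 4.17% at 80%, 21.1% to 22.9% at 40% and 48.5% to 56.1% at 20%. Depth limits the members in pure HEK, where DOCK2, RAC2 and MYO1G had at most 4 counts over 2 libraries.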

Other observations

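CYFIP1, a subunit of the WAVE complex, was in 4 mixed libraries above all libraries of both pure lines. Beside 116 and 142 CPM at 80% HEK it had 106 CPM in the first library at 50% and 62.5 CPM in the first at 40%, while the other mixed libraries lay between 23.2 and 36.0 CPM. Its mean departure from the additive level was 0.93 on the log2 scale (SE 0.24, adjusted p = 1 from limma), so it was not called.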
